A study of Mus musculus with 24 samples.

Results

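The response to bacterial lipopolysaccharide (LPS) was examined in mouse bone marrow-derived macrophages that lack the G protein-coupled receptor GPR35 (KO cells). It was read as 4 LPS libraries against 4 untreated (Cont) libraries of the same genotype, 8 of the 24 RNA-seq libraries in the series, across all 11590 genes of the deposited count table. The cells came from male mice on a C57BL/6 background, were grown from bone marrow with M-CSF, and on day 7 either received 10 ng/mL LPS for 4 h or received nothing. Both groups therefore share the GPR35 deficiency, the M-CSF culture and the harvest time, and differ in LPS. The other 16 libraries (KO cells with lysophosphatidic acid, and wild-type, WT, cells of the same sex and background under the same 3 conditions) entered the estimate of the spread, and the untreated and LPS-treated WT libraries served for 1 comparison between genotypes. The labels do not say which part of Gpr35 was deleted, nor whether the 4 replicates came from separate mice or cultures, so the p-values measure the spread between these libraries, which may be technical.

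LPS is recognised on macrophages by CD14, which hands it to the receptor pair TLR4 and MD-2 (gene Ly96). The adaptors TIRAP and MyD88 lead from the cell surface to the IRAK kinases, TRAF6, the TAK1 kinase and the IkB kinases, which free NF-kB to enter the nucleus. After uptake of the receptor, the adaptors TRAM and TRIF lead to TBK1 and IRF3, and so to interferon beta, whose secretion drives a later wave of interferon-stimulated genes through JAK and STAT proteins. GPR35 is an orphan-type receptor of myeloid and gut cells, and the title of the series names it as a mediator of lysophosphatidic acid signals.

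The KO libraries carried 15167683 to 18204622 counts with LPS and 16967776 to 21461866 without. Values are given as CPM, each count relative to its library's total after TMM scaling. TMM corrects for a shift in which RNAs take up the total, and it takes the typical gene as unchanged. Gpr35 (chromosome 1, 92948052 to 92986391, GRCm38.p6) had 4, 1, 2 and 5 counts in the untreated KO libraries and 0 in each LPS library. Its mean was 0.133 CPM without LPS, against 2.61 CPM in untreated WT cells. Against a floor of 3 counts for the LPS group, the level was at least 2.56-fold lower with LPS (edgeR adjusted p = 0.0063). This rests on 12 counts against 0, and the exact 95% counting interval of the ratio starts at 1.78-fold. All 12 macrophage markers examined were measured, among them Csf1r, Adgre1 (F4/80), Cd68 and Mertk. Of these markers, 6 rose and 6 fell with LPS (median log2 change -0.03), against 39.3% and 43.0% of all genes. Their summed level, of which Lyz2 holds the largest part, ran from 34580 to 36520 CPM without LPS and from 44570 to 48200 CPM with it. Markers of granulocytes and their precursors were detected at a low level, 392.6 to 700.5 CPM summed over 12 of 13 genes without LPS and 412.4 to 732.3 CPM with it, while Ly6g is not analysed here. For dendritic cells 2 of 10 markers were measured, for T, NK and B cells 2 of 15, for mast cells and basophils 1 of 8 and for erythroid cells 1 of 7, and Flt3, Cd3e, Cpa3 and Hbb-bs were not among them. Of 11 stromal and endothelial markers, 7 were measured, of which 3 rose and 2 fell (median log2 change -0.51). Their sum was 46.7 to 59.1 CPM without LPS and 135.9 to 176.1 CPM with it, and most of that rise came from the receptor gene Kdr (9.96 to 129 CPM), while the collagen genes Col1a1 and Col1a2 stayed under 1 CPM and were not called. The part of other cell types in the results below was not tested. In RNA from a whole culture, a change in how many cells express a gene and a change in the amount per cell cannot be told apart.

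Most of the measured transcriptome moved. By edgeR's quasi-likelihood test, 9539 of 11590 genes passed an adjusted p of 0.05 (82.3%), of which 4554 rose (39.3% of genes) and 4985 fell (43.0%). In a test against a change of 2-fold, 1278 genes rose (11.0%) and 1646 fell (14.2%). All 4 LPS libraries lay above all 4 untreated ones for 36.0% of genes and below them for 38.8%. The median log2 change (LPS minus untreated) over all genes was -0.05. How many genes rise and how many fall is set by the scaling: by library totals alone, the median log2 change was -0.55, and 24.1% of the called genes rose in place of 47.7%. The direction of changes under about 0.5 on the log2 scale is therefore a statement relative to the typical gene, and 875 genes called by both scalings had opposite signs. At the extremes, 107 genes that rose and 85 that fell had point estimates of at least 16-fold, and 22 and 5 of these were at least 64-fold. The 1278 genes that rose beyond 2-fold took 11.4, 12.8, 12.2 and 13.4% of all counts in the untreated libraries and 35.8, 36.2, 34.7 and 34.1% in the LPS libraries. These shares describe genes chosen by the same contrast and carry no test.

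**Figure D1:**
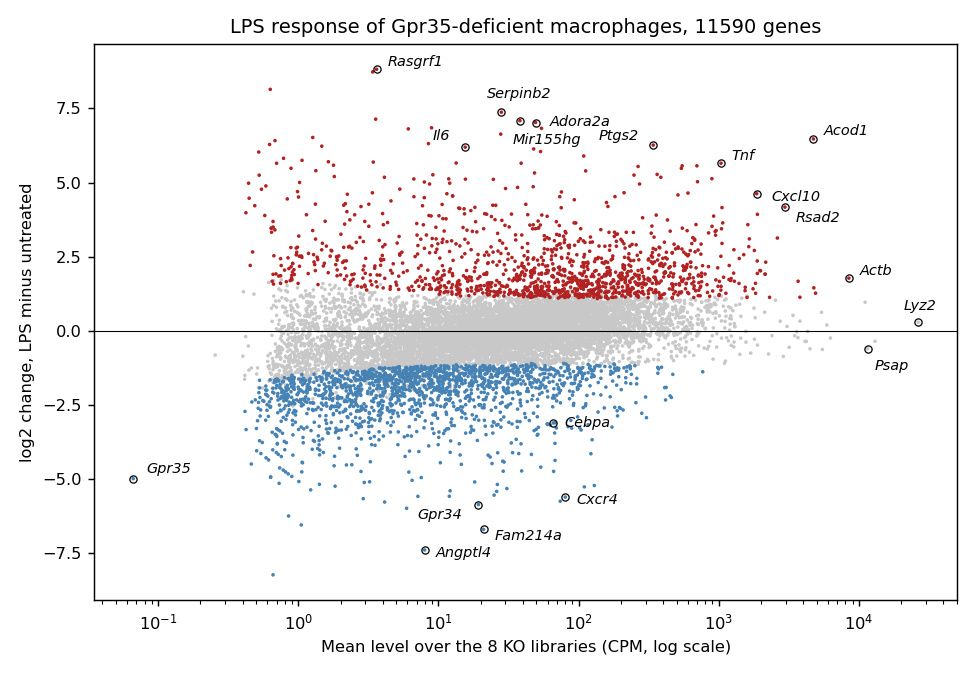
Mean level of each of the 11590 genes over the 8 KO libraries (x axis, CPM, log scale) against its log2 change with LPS (y axis). Red points rose and blue points fell beyond 2-fold (1278 and 1646 genes), grey points did not pass that test, and labelled points are genes named in the text.

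The surface sensor rose while its signalling partner fell. Cd14, the LPS-binding co-receptor, was at 465, 363, 426 and 491 CPM in untreated libraries and at 2485, 2308, 2405 and 2249 CPM with LPS, a log2 change of 2.44 ± 0.14 (SE) with an edgeR adjusted p of 1.9e-13. Every LPS library stood above every untreated one. The SE here and below is worked back from edgeR's F statistic. Tlr4, the signalling receptor, was at 154, 187, 164 and 172 CPM without LPS and 111, 114, 105 and 121 CPM with it, a log2 change of -0.59 ± 0.08 (edgeR adjusted p = 7.4e-07), and the groups did not overlap. Ly96, the partner of TLR4 that holds the lipid, was called higher (0.26 ± 0.10, edgeR adjusted p = 0.02), but its libraries overlapped, at 18.8, 21.9, 21.6 and 20.2 CPM without and 29.6, 25.9, 23.4 and 19.5 CPM with LPS, and its sign turned when libraries were scaled by their totals alone. The call was lost without untreated replicate 1, LPS replicate 1 or LPS replicate 2 (edgeR adjusted p = 0.066, 0.14 and 0.053). Of the 22 genes of the receptor complex and its adaptors, 15 rose, 4 fell and 3 did not pass. Over all genes, 39.3% rose and 43.0% fell. The median log2 change of the 22 was 0.37 (-0.13 by library totals alone, with 8 rises and 12 falls). Both branches held members that rose beyond 2-fold: Myd88 went from 119 ± 10.1 to 511 ± 43.6 CPM (mean ± SD, n = 4 per group here and below), and Ticam1, which encodes TRIF, from 31.8 ± 1.995 to 73.2 ± 5.45 CPM. Irak2, the kinase that sustains signalling by TLR4, rose from 76.2 ± 4.998 to 477 ± 40.99 CPM. Tab1, an activating subunit of the TAK1 kinase complex, fell beyond 2-fold, from 24.7, 24.8, 25.9 and 23.2 CPM to 8.93, 8.69, 9.15 and 11.3 CPM, whereas Tab2, another subunit gene of that complex, rose (1.10 ± 0.05).

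All 14 measured NF-kB genes rose (subunits, IkB proteins and IkB kinases, median log2 change 1.54), against 39.3% of all genes. Beyond 2-fold, 9 of the 14 rose, against 11.0% of all genes. Scaled by library totals alone, 12 were called higher and 0 lower. Nfkbiz, which encodes the nuclear co-activator IkB-zeta, was at 55.2, 56.03, 61.7 and 67.2 CPM without and 838, 833, 838 and 694 CPM with LPS, a log2 change of 3.74 ± 0.10 (edgeR adjusted p = 1.1e-18). Nfkbia, the inhibitor IkB-alpha that NF-kB itself induces, went from 110.3, 125, 157 and 129 CPM to 848, 852, 847 and 653 CPM (2.62 ± 0.13, edgeR adjusted p = 1.1e-14). The groups of both genes were far apart, and in both the lowest LPS value came from replicate 4. Among the subunits, Rel rose by 2.46 ± 0.08, Nfkb1 by 2.17 ± 0.07, Nfkb2 by 1.77 ± 0.10, Relb by 1.30 ± 0.09 and Rela by 1.13 ± 0.07 on the log2 scale.

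Genes that restrain the pathway rose with it. Of 25 measured feedback inhibitors, 19 rose and 4 fell, against 39.3% and 43.0% of all genes. Beyond 2-fold, 14 rose and 3 fell, against 11.0% and 14.2%. The median log2 change of the list was 1.58. Scaled by library totals alone, 17 rose and 7 fell. Socs3, an inhibitor of cytokine receptor signalling, stood at 12.7, 10.9, 21.4 and 19.2 CPM without and 437, 447, 396 and 342 CPM with LPS, a log2 change of 4.66 ± 0.22 (edgeR adjusted p = 5.7e-14), with no overlap. Tnfaip3, which encodes the ubiquitin-editing enzyme A20, rose from 91.6 ± 13.1 to 726 ± 97.6 CPM, and Irak3, an IRAK without kinase activity, from 42.3 ± 2.36 to 358 ± 23.7 CPM. The mRNA-decay factors moved apart. Zfp36 (tristetraprolin) rose from 231 ± 15.8 to 691 ± 110.2 CPM, while Zfp36l1 fell from 325 ± 16.6 to 141 ± 20.3 and Zfp36l2 from 256 ± 11.2 to 95.9 ± 12.8 CPM. Sigirr, an inhibitory receptor of the same family as TLRs, also fell, though from only 1.01 ± 0.578 to 0.183 ± 0.104 CPM, and Dusp6, a phosphatase of ERK, was lower (log2 change -0.47 ± 0.13). Of 20 measured immediate-early and AP-1 genes, 14 rose, 3 fell and 3 did not pass (11 rises and 3 falls by library totals alone). Egr1 was still raised at 4 h, at 42.6, 34.4, 40.4 and 38.8 CPM against 6.68, 5.55, 5.73 and 8.49 CPM, while Fos was below its untreated level, at 51.8, 60.4, 51.1 and 71.6 CPM against 145, 148, 128 and 134 CPM. Neither gene's groups overlapped. Klf2 (-1.36 ± 0.18) and Nr4a1 (-1.10 ± 0.30) were the other 2 members that fell.

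The secreted mediators had the highest medians of the 31 lists examined. Of 25 measured cytokine genes, 21 rose and 3 fell (median log2 change 3.16), and of 20 chemokine genes, 18 rose and 1 fell (median 4.04), set against 39.3% and 43.0% over all genes. Tnf (chromosome 17, 35199367 to 35202007) was at 25.97, 49.05, 44.9 and 42.4 CPM without LPS and at 2107, 2307, 2169 and 1552 CPM with it, a log2 change of 5.65 ± 0.26 (edgeR adjusted p = 2.8e-14). Il1b, the inflammasome-processed cytokine, went from 33.6, 17.9, 33.5 and 30.4 CPM to 1684, 1387, 1410 and 989 CPM, a log2 change of 5.56 ± 0.31 (edgeR adjusted p = 6.2e-13). In both genes all LPS libraries stood far above all untreated ones, and replicate 4 was the lowest of the LPS libraries. Il6 (chromosome 5, 30013114 to 30019975) was near the limit of detection without LPS, at 0.579, 0.423, 0.426 and 0.246 CPM, and reached 37.2, 33.4, 38.3 and 13.4 CPM, a log2 change of 6.19 ± 0.40 (edgeR adjusted p = 5.9e-12). Il12b, the p40 subunit of IL-12 and IL-23, went from 1.96, 2.01, 3.93 and 2.501 CPM to 44.02, 40.3, 56.6 and 19.6 CPM (3.95 ± 0.33, edgeR adjusted p = 4.6e-10). Here too the groups were separate, and LPS replicate 4 was well below the other LPS libraries in both. Il10, the anti-inflammatory cytokine, changed little beside these, from 5.08, 8.04, 6.39 and 10.1 CPM to 11.2, 10.3, 10.2 and 14.4 CPM (0.63 ± 0.18, edgeR adjusted p = 0.0023), although its groups did not overlap, and by library totals alone it lost its call (0.15). Ifnb1, the interferon that drives the second wave, was at 0, 0.0529, 0.0474 and 0.123 CPM without and 1.74, 2.76, 1.25 and 2.197 CPM with LPS (5.003 ± 0.52, edgeR adjusted p = 4.4e-09), from 0, 1, 1 and 3 counts to 25, 39, 18 and 28. With so few untreated counts, the SE given for Ifnb1 is smaller than the counting error alone. The 3 cytokine genes that fell encode growth factors: Pdgfb (74.3, 82.2, 78.5 and 77.3 CPM to 25.3, 23.3, 24.1 and 26.1 CPM), Vegfa (-1.62 ± 0.22) and Igf1 (-0.61 ± 0.07).

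Among chemokines, Cxcl10, the interferon-inducible attractant of T and NK cells (chromosome 5, 92346638 to 92348889), went from 104, 136, 129 and 212 CPM to 3761, 4292, 2986 and 3286 CPM, a log2 change of 4.62 ± 0.24 (edgeR adjusted p = 1.3e-13). Ccl5 went from 40.5, 45.99, 43.6 and 68.3 CPM to 1791, 2159, 1609 and 1385 CPM (5.13 ± 0.18, edgeR adjusted p = 1.9e-16). Ccl4, an attractant of monocytes and T cells, had the highest log2 change of the list, from 20.8, 21.1, 17.6 and 30.9 CPM to 1295, 1058, 1020 and 917 CPM (5.56 ± 0.24, edgeR adjusted p = 7.1e-15). In all 3 genes the lowest LPS library stood far above the highest untreated one. Ccl9, a chemokine already abundant without LPS, rose from 723, 1340, 781 and 779 CPM to 2762, 3617, 2412 and 2200 CPM, with replicate 2 the highest in both groups. Cxcl14 was the 1 member that fell, from 2.801 ± 0.507 to 1.52 ± 0.324 CPM, and Ccl6 did not pass (-0.28 ± 0.20, edgeR adjusted p = 0.21), though it was called lower with the replicate number as a block (-0.29, edgeR adjusted p = 5.2e-05).

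**Figure D2:**
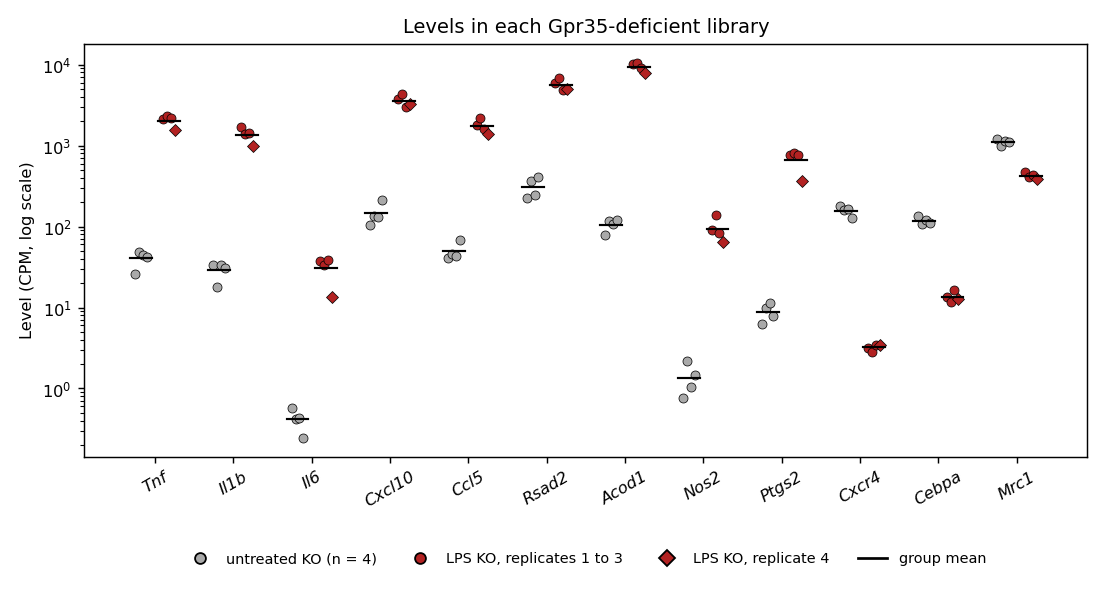
Level of 12 genes in each KO library (y axis, CPM, log scale), untreated in grey and LPS-treated in red, with 4 points per group and a bar at the group mean. The 2 groups are separate in every gene plotted. Rsad2 and Cxcl10 show the wider spread of the untreated libraries, and Il6 and Ptgs2 show LPS replicate 4 (filled diamond) below the other LPS libraries.

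All 52 measured interferon-stimulated genes rose, against 39.3% of all genes, and 50 rose beyond 2-fold, against 11.0%. The median log2 change of these 52 was 2.52 (2.03 by library totals alone). Their summed level was 7021, 11030, 7988 and 12000 CPM in the untreated libraries and 59080, 63860, 52090 and 53990 CPM with LPS. The untreated libraries thus differed among themselves by up to 1.71-fold, replicates 1 and 3 being lower than 2 and 4, while the lowest LPS library was 4.34-fold above the highest untreated one. Rsad2, which encodes the antiviral enzyme viperin, was at 225, 367, 245 and 411 CPM without and 5854, 6761, 4844 and 4986 CPM with LPS, a log2 change of 4.17 ± 0.22 (edgeR adjusted p = 1.2e-13). Ifit1, a sensor of viral RNA caps, was at 118, 227, 149.7 and 211 CPM and 1924, 2199, 1768 and 1760 CPM (3.44 ± 0.17, edgeR adjusted p = 4.9e-14). In both, untreated replicates 1 and 3 were the low ones, as in the list sums. The genes with the lowest log2 changes were Oas2 (1.07 ± 0.10) and Bst2 (1.19 ± 0.13), the 2 that did not pass 2-fold. Reads of near-identical Ifit, Oas, Slfn and guanylate-binding protein genes depend on how the counting step treated shared sequence, so the share of each copy is uncertain.

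The factors that transmit interferon signals moved less evenly. Of 22 IRF, STAT, JAK and BATF genes, 15 rose, 4 fell and 3 did not pass (median log2 change 0.76, with 13 rises and 8 falls by library totals alone). The shares over all genes were 39.3% for rises and 43.0% for falls. Irf7, which amplifies interferon production, went from 267, 431, 275 and 494 CPM to 1650, 1698, 1475 and 1567 CPM, and Jak2 from 92.99 ± 9.83 to 657 ± 76.6 CPM. Irf4, a factor of alternative activation, fell from 6.99, 4.65, 4.74 and 6.64 CPM to 0.558, 0.777, 0.485 and 0.628 CPM, a log2 change of -3.23 ± 0.34 (edgeR adjusted p = 6.4e-09). Irf8 (-0.39 ± 0.08), Batf3 (-1.41 ± 0.24) and Stat6 (-0.38 ± 0.05) fell too, and Irf3, the TRIF branch's first transcription factor, did not pass (0.03 ± 0.07, edgeR adjusted p = 0.67). Of 27 pattern receptor and inflammasome genes, 19 rose and 4 fell (17 and 8 by library totals alone). The formyl peptide receptor Fpr1 went from 3.57 ± 0.5703 to 214 ± 27.7 CPM, Nlrp3, the inflammasome sensor, from 106 ± 19.3 to 1269 ± 122 CPM, and the lectin Clec4e (Mincle) from 233 ± 32.9 to 3538 ± 509 CPM. The 4 that fell were Tlr13 (-1.14 ± 0.08), Clec7a, the beta-glucan receptor Dectin-1 (-1.04 ± 0.12), Nlrc4 (-0.59 ± 0.06) and Naip5 (-0.21 ± 0.06).

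Acod1, the mitochondrial enzyme that makes itaconate (chromosome 14, 103047012 to 103056573), gained more CPM than any gene but Actb. It was at 77.8, 116, 108 and 120.0 CPM without LPS and at 10060, 10530, 8980 and 7851 CPM with it, a log2 change of 6.47 ± 0.27 (edgeR adjusted p = 2.5e-15). Per length of transcript (RPKM, reads per kilobase of transcript scaled by TMM library size) it moved from rank 1569 of 11590 in untreated cells to rank 7 with LPS, and Ccl5 and Cxcl10 moved from ranks 598 and 389 to ranks 9 and 10. Nos2, the inducible nitric oxide synthase, was at 0.757, 2.17, 1.04 and 1.48 CPM and 89.5, 139, 83.9 and 63.7 CPM (6.13 ± 0.39, edgeR adjusted p = 8.0e-12). The groups were separate, with LPS replicate 2 the highest. Enzymes and transporters that feed nitric oxide synthesis rose as well: Gch1, the first enzyme of tetrahydrobiopterin synthesis, from 23.6 ± 4.23 to 192 ± 18.7 CPM, Slc7a2, an arginine transporter, from 4.08 ± 0.533 to 62.2 ± 20.8 CPM, and Ass1, which regenerates arginine, from 9.21 ± 2.88 to 34.8 ± 5.59 CPM. The later enzymes of these routes, Spr (-1.20 ± 0.13), Pts (-0.57 ± 0.08) and Asl (-0.24 ± 0.05), fell.

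Prostaglandin genes moved apart within single steps of synthesis. Ptgs2 (COX-2) was at 6.24, 9.88, 11.3 and 7.79 CPM without and 758, 812, 758 and 360.0 CPM with LPS, a log2 change of 6.26 ± 0.32 (edgeR adjusted p = 2.1e-13), and its constitutive relative Ptgs1 (COX-1) was at 14.7, 10.2, 11.8 and 11.8 CPM and 4.12, 2.898, 2.22 and 2.43 CPM (-2.05 ± 0.18, edgeR adjusted p = 3.2e-10). Neither overlapped. The prostaglandin E2 synthase Ptges rose from 5.71 ± 1.46 to 145 ± 33.6 CPM, whereas the thromboxane synthase Tbxas1 fell from 141 ± 6.17 to 47.4 ± 2.39 and the prostaglandin D2 synthase Hpgds from 217 ± 25.4 to 71.3 ± 3.35 CPM. Hpgd, the enzyme that inactivates prostaglandins, was at 112, 44.7, 60.2 and 85.2 CPM and 4.25, 1.55, 2.98 and 2.59 CPM (-4.73 ± 0.54, edgeR adjusted p = 8.4e-08), lowest in replicate 2 of both groups. The leukotriene genes Alox5ap (-1.18 ± 0.10), Lta4h (-1.09 ± 0.06) and Ltc4s (-1.47 ± 0.39) fell. In all, 8 of 20 measured eicosanoid genes rose and 10 fell (6 and 11 by library totals alone), against 39.3% and 43.0% over all genes.

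Of 27 glycolysis and HIF-1 target genes, 20 rose and 3 fell (median log2 change 0.59, and 0.10 by library totals alone with 13 rises and 7 falls). The glucose transporter Slc2a1 rose from 28.1 ± 3.11 to 166 ± 7.83 CPM, its relative Slc2a6 from 79.9 ± 9.72 to 820.2 ± 100.1 CPM, and the lactate exporter Slc16a3 from 21.9 ± 2.69 to 82.5 ± 4.12 CPM. Gapdh, a glycolytic enzyme often used as a reference, was called higher (25.6, 29.8, 26.4 and 25.2 CPM to 39.4, 35.5, 37.2 and 40.7 CPM). Its call was lost by library totals alone (log2 change 0.02). Gapdh has many processed copies in the genome, and how reads shared with them were counted is not given in the sources used here, so its level is uncertain. Of 24 tricarboxylic acid cycle genes, 10 rose and 10 fell (3 and 18 by library totals alone), close to the 39.3% and 43.0% over all genes. Among them, none rose beyond 2-fold, and the 2 that fell beyond it were the isocitrate dehydrogenases Idh1 (274 ± 23.5 to 113 ± 8.26 CPM) and Idh2 (52.6 ± 2.79 to 21.5 ± 1.82 CPM). Sdha, the succinate dehydrogenase subunit, was at 205, 229, 205 and 210.4 CPM without and 209, 212, 209 and 192 CPM with LPS and did not pass (-0.05 ± 0.04, edgeR adjusted p = 0.31). Of 36 complex I subunits, 5 rose, 14 fell and 17 did not pass, and none passed 2-fold. By library totals alone, 0 of these subunits rose and 34 fell.

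Cholesterol synthesis genes rose together. Of 26 measured genes of the sterol pathway and its regulators, 20 rose and 4 fell, against 39.3% and 43.0% of all genes. Beyond 2-fold, 15 rose, against 11.0% of all genes. The median log2 change of the list was 1.60. Scaled by library totals alone, 18 rose and 6 fell. Hmgcs1, an early enzyme of the mevalonate route, was at 67.8, 100.4, 90.03 and 83.2 CPM without and 299, 473, 386 and 384 CPM with LPS (2.18 ± 0.19, edgeR adjusted p = 5.7e-10). Insig1, a sterol-sensing regulator of the pathway, was at 35.3, 49.9, 46.7 and 47.4 CPM and 157, 232, 181 and 182 CPM (2.07 ± 0.16, edgeR adjusted p = 1.7e-10). Replicate 1 was the lowest and replicate 2 the highest of both groups in both genes, and the groups were separate. The 4 that fell were Dhcr7 (-0.81 ± 0.16), Ebp (-0.52 ± 0.06), Insig2 (-0.30 ± 0.06) and Scap (-0.23 ± 0.07). Of 24 genes controlled by the oxysterol receptor LXR or handling cholesterol, 7 rose and 14 fell (median log2 change -0.29, with 3 rises and 17 falls by library totals alone). Arl4c was at 249.8, 212, 238 and 226 CPM and 17.4, 17.9, 16.7 and 20.5 CPM (-3.68 ± 0.11, edgeR adjusted p = 1.5e-17), the exporter Abca1 fell (-0.34 ± 0.06), and Abcg1 did not pass (-0.17 ± 0.09, edgeR adjusted p = 0.071) except with the replicate block (-0.17, edgeR adjusted p = 0.0065) or without untreated replicate 1 (-0.22, edgeR adjusted p = 0.031). Ch25h, which makes 25-hydroxycholesterol, rose from 0.647 ± 0.457 to 15.2 ± 1.86 CPM.

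Of 32 measured G protein-coupled receptors, 12 rose and 17 fell (10 and 20 by library totals alone), against 39.3% and 43.0% of all genes. Beyond 2-fold, 9 rose and 13 fell, against 11.0% and 14.2% of all genes. Adora2a, the adenosine A2A receptor, was at 0.847, 0.899, 0.426 and 0.8200 CPM without and 105, 107, 104 and 74.2 CPM with LPS, a log2 change of 7.02 ± 0.25 (edgeR adjusted p = 2.4e-16). Gpr84, which senses fatty acids of medium chain length, went from 15.1 ± 2.83 to 348 ± 15.1 CPM, and Hcar2, the niacin and beta-hydroxybutyrate receptor, from 3.14 ± 0.859 to 91.6 ± 8.03 CPM. Receptors of lysophosphatidic acid moved apart: Lpar1 rose from 4.05, 3.91, 5.87 and 4.797 CPM to 54.2, 62.5, 51.9 and 51.2 CPM, while Lpar6 fell from 150.0, 108, 113 and 135 CPM to 8.37, 8.41, 9.43 and 10.2 CPM and Lpar5 from 29.9, 24.8, 28.3 and 25.1 CPM to 1.05, 1.41, 1.04 and 2.51 CPM. None of these 3 genes had overlapping groups. Gpr34, a lysophosphatidylserine receptor, was at 46.2, 28.2, 37.7 and 39.3 CPM and 0.628, 0.283, 0.555 and 1.18 CPM (-5.86 ± 0.62, edgeR adjusted p = 2.1e-08), and Gpr183, the oxysterol receptor EBI2, at 24.9, 24.7, 19.1 and 25.9 CPM and 0.628, 0.495, 0.555 and 0.549 CPM (-5.40 ± 0.22, edgeR adjusted p = 8.8e-16). S1pr1, a sphingosine 1-phosphate receptor, fell from 72.2 ± 7.51 to 13.8 ± 0.758 CPM.

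Of 31 cytokine and chemokine receptors, 15 rose and 13 fell (8 and 17 by library totals alone), against 39.3% and 43.0% over all genes. The median log2 change was 0.14 (-0.35 by library totals alone). Cxcr4, the bone marrow retention receptor, was at 178, 160.4, 163 and 127 CPM without and 3.14, 2.83, 3.47 and 3.45 CPM with LPS (-5.61 ± 0.32, edgeR adjusted p = 1.4e-12). Both chains of the IL-6 receptor fell while Il6 rose: Il6ra from 138 ± 8.46 to 33.9 ± 6.27 CPM and Il6st (gp130) from 292 ± 28.1 to 81.8 ± 4.95 CPM. Both TNF receptors rose, Tnfrsf1b from 867 ± 48.5 to 2212 ± 313 CPM and Tnfrsf1a from 198 ± 10.5 to 429 ± 25.5 CPM. Cx3cr1, the fractalkine receptor, was called lower (-2.19 ± 0.60, edgeR adjusted p = 0.0021), yet its libraries overlapped, at 19.7, 6.13, 11.3 and 28.9 CPM without and 3.07, 1.41, 2.43 and 8.01 CPM with LPS, replicate 2 being the lowest and replicate 4 the highest in both groups. Its ligand Cx3cl1 rose from 0.776 ± 0.126 to 14.6 ± 2.62 CPM.

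Of 26 lineage factors and identity genes, 15 rose and 8 fell, against 39.3% and 43.0% of all genes. Beyond 2-fold, 7 rose and 3 fell, against 11.0% and 14.2%. The median log2 change of the list was 0.57 (0.08 by library totals alone, with 12 rises and 11 falls). Adgre1 (F4/80) was at 2788, 3086, 2867 and 2769 CPM without and 6872, 6718, 7086 and 7018 CPM with LPS, a log2 change of 1.27 ± 0.08 (edgeR adjusted p = 3.6e-13), and the lineage factor Spi1 (PU.1) rose from 268 ± 16.9 to 781 ± 49.95 CPM. Csf1r, the M-CSF receptor, was at 4785, 4500, 4536 and 4697 CPM and 3406, 3816, 3397 and 3848 CPM (-0.36 ± 0.08, edgeR adjusted p = 3.7e-04). Among transcription factors, Cebpd rose from 8.54 ± 1.72 to 95.2 ± 22.96 CPM, while its relative Cebpa was at 134, 107, 122 and 109.8 CPM and 13.5, 11.8, 16.6 and 12.7 CPM (-3.11 ± 0.13, edgeR adjusted p = 3.0e-15). The groups of Cebpa did not overlap.

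Of 16 measured genes of alternative activation and scavenging, 3 rose, 7 fell and 6 did not pass. Over all genes, 39.3% rose and 43.0% fell. Mrc1, the mannose receptor CD206, was at 1198, 999.5, 1152 and 1092 CPM without and 477, 406, 436 and 382 CPM with LPS (-1.38 ± 0.08, edgeR adjusted p = 5.3e-13). Clec10a, a galactose lectin, was at 44.1, 18.3, 27.1 and 51.2 CPM and 4.12, 2.83, 1.25 and 2.67 CPM (-3.70 ± 0.497, edgeR adjusted p = 7.8e-07). Msr1, the scavenger receptor A, rose from 274 ± 31.9 to 1257 ± 205 CPM, and Chil3 did not pass (-0.08 ± 0.33, edgeR adjusted p = 0.82). Of 23 genes for the clearance of dead cells and complement, 10 rose and 9 fell (6 and 13 by library totals alone), near the shares of 39.3% and 43.0% over all genes. The receptor Mertk (187, 168, 179 and 188 CPM to 138, 132, 132 and 126 CPM) and its bridging ligand Gas6 (364 ± 34.97 to 106 ± 10.4 CPM) fell, the related receptor Axl rose (1.24 ± 0.20), and the inhibitory receptor Havcr2 (TIM-3) fell from 15.9 ± 1.58 to 1.08 ± 0.133 CPM. Complement C3 rose from 526 ± 109 to 2025 ± 164 CPM and factor B, Cfb, from 44.9 ± 16.9 to 365 ± 45.9 CPM, while C1qa and C1qc did not pass.

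Of 35 lysosomal genes (hydrolases, membrane proteins, proton pump and regulators), 20 fell and 9 rose, against 43.0% and 39.3% of all genes. The median log2 change was -0.36, with 30 falls and 4 rises by library totals alone. Beyond 2-fold, 1 fell, Galc (-1.36 ± 0.08), and 1 rose, Ctsc (1.26 ± 0.14), against 14.2% and 11.0% of all genes. Some members were among the most abundant RNAs of the cells. Psap, the precursor of the saposins, was not on that list and lost the most CPM of all genes. It was at 14460, 13760, 13530 and 13880 CPM without and 9299, 9570, 8851 and 8792 CPM with LPS (-0.61 ± 0.07, edgeR adjusted p = 9.7e-09). The protease genes Ctsb (14710, 16110, 13770 and 13850 CPM to 11510, 12520, 10750 and 10910 CPM, -0.35 ± 0.08) and Ctsd (6665 ± 901 to 4302 ± 265 CPM, -0.63 ± 0.10) followed it in that order, and the others of the 8 genes that lost most CPM were Gpnmb, Selenop, Itm2b, Lgals3 and Mpeg1, with log2 changes from -0.87 to -0.25. Gpnmb libraries overlapped between groups. At the other end, the 8 genes that gained most CPM were Actb, Acod1, Fth1, Rsad2, Lyz2, Cybb, Ifit2 and Adgre1. Actb, beta-actin, went from 3503, 4105, 3523 and 4186 CPM to 12990, 14580, 11870 and 12990 CPM (1.77 ± 0.09, edgeR adjusted p = 2.3e-14), and Cybb, the NADPH oxidase subunit gp91phox, from 2572, 2238, 2534 and 2876 CPM to 7172, 7015, 6806 and 6895 CPM (1.45 ± 0.09, edgeR adjusted p = 1.1e-12). Lyz2, lysozyme, was the most abundant gene per length in both groups and was called higher (0.29 ± 0.07), a sign that turned by library totals alone.

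**Figure D3:**
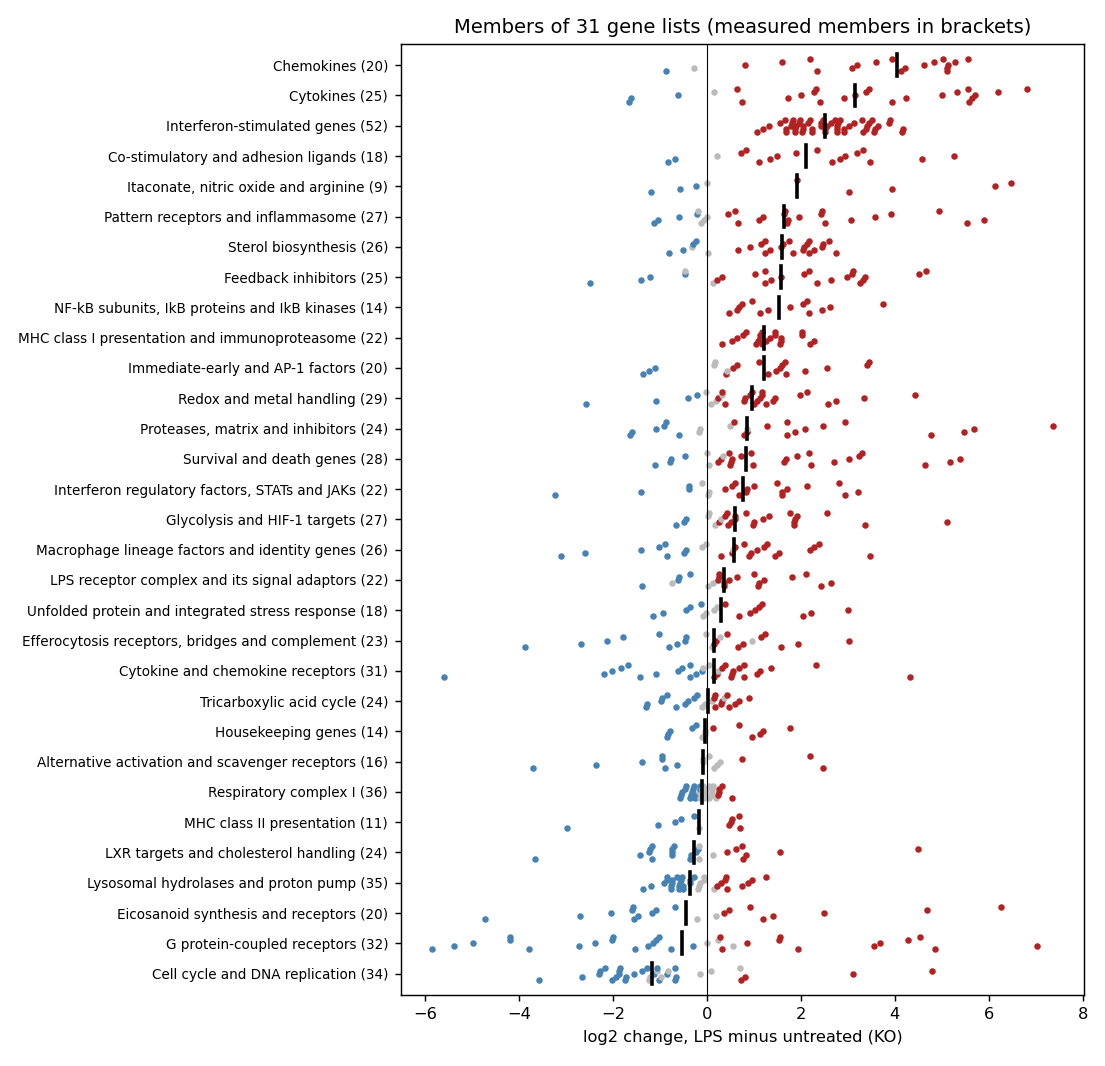
Log2 change (LPS minus untreated, x axis) of every measured member of 31 gene lists (rows), with the list's median as a black bar. Red points rose and blue points fell at an adjusted p below 0.05, and grey points did not pass. Chemokines, cytokines and interferon-stimulated genes lie furthest to the right, and cell cycle genes furthest to the left.

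All 22 measured genes of MHC class I presentation were called higher (median log2 change 1.22; by library totals alone 19 were higher and 1, H2-D1, lower), from H2-D1 at 0.32 ± 0.09 to the class I transactivator Nlrc5 at 2.27 ± 0.14 on the log2 scale. Nlrc5 was at 109, 128, 122 and 176 CPM without and 667, 693, 606 and 612 CPM with LPS. Among 11 MHC class II genes, 5 rose and 5 fell (1 and 6 by library totals alone), near the shares over all genes (39.3% and 43.0%). The class II transactivator Ciita was at 35.95, 23.9, 30.2 and 38.01 CPM and 3.63, 5.37, 2.91 and 4.32 CPM (-2.99 ± 0.29, edgeR adjusted p = 6.2e-09), while H2-Ab1, which it controls, was at 200.5, 146, 182 and 178 CPM and 312, 298, 250.2 and 283 CPM (0.70 ± 0.11, edgeR adjusted p = 3.4e-06). The regulator and the target thus moved in opposite directions at 4 h, both without overlap, although H2-Ab1 lost its call by library totals alone (log2 change 0.20). Of 18 co-stimulatory and adhesion genes, 15 rose and 2 fell. Cd40 rose from 40.97 ± 9.08 to 982 ± 95.6 CPM, Icam1 from 242 ± 39.4 to 1865 ± 88.2 CPM, and Cd274 (PD-L1) from 185 ± 35.7 to 1169 ± 136 CPM, while Cd86 rose (0.84 ± 0.18, not called by library totals alone) and Cd80 fell (-0.69 ± 0.17).

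Among proteases, matrix genes and their inhibitors, 14 of 24 rose and 6 fell (11 and 8 by library totals alone). Mmp14, a membrane-bound collagenase, rose from 148 ± 19.1 to 1135 ± 67.7 CPM, the inhibitor Timp2 fell from 392 ± 20.4 to 129 ± 9.25 CPM, and the acute-phase gene Saa3 rose from 23.9, 13.5, 19.5 and 37.2 CPM to 1287, 1120, 824 and 996 CPM (5.48 ± 0.40, edgeR adjusted p = 7.9e-11). Of 28 survival and death genes, 21 rose and 4 fell (15 and 8 by library totals alone). The anti-apoptotic genes Bcl2a1b (4.64 ± 0.11), Bcl2a1d (5.18 ± 0.17) and Bcl2a1a (5.39 ± 0.18) had the largest rises of that list, though as near-identical copies they may share reads, and Cflar, the caspase-8 inhibitor, rose from 166 ± 10.8 to 1084 ± 97.8 CPM. The pro-apoptotic Bcl2l11 (-0.77 ± 0.08) and Bbc3 (-1.11 ± 0.18) fell. Of 29 redox and metal genes, 21 rose and 4 fell (18 and 8 by library totals alone). Sod2, the mitochondrial superoxide dismutase, rose from 168 ± 26.99 to 1714 ± 149 CPM and the cystine transporter Slc7a11 from 8.38 ± 2.64 to 178 ± 54.98 CPM, while the iron exporter Slc40a1 (ferroportin) fell from 310.1 ± 57.3 to 51.7 ± 15.3 CPM. Fth1, the ferritin heavy chain, rose (7507 ± 918 to 14610 ± 1470 CPM), and Ftl1, the light chain, did not pass (-0.02 ± 0.09, edgeR adjusted p = 0.83). Stress response genes were mixed, with 9 of 18 rising and 5 falling (8 and 8 by library totals alone), against 39.3% and 43.0% over all genes. Ppp1r15a (GADD34) rose from 27.9 ± 2.39 to 223 ± 26.3 CPM, and Ddit3 (CHOP) did not pass (-0.03 ± 0.17, edgeR adjusted p = 0.86).

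Cell cycle genes fell more often than they rose, with a large spread between replicates. Of 34 measured, 22 fell, 4 rose and 8 did not pass (median log2 change -1.17, with 29 falls and 3 rises by library totals alone). Over all genes, 43.0% fell and 39.3% rose. The inhibitor Cdkn1a (p21) rose from 349.7, 254, 377 and 399.9 CPM to 3063, 3235, 3130 and 2406 CPM (3.10 ± 0.13, edgeR adjusted p = 1.3e-15), and Ccnd2 (cyclin D2) from 2.06 ± 0.718 to 58.1 ± 7.37 CPM. The replication licensing gene Mcm2 was at 10.1, 10.1, 8.29 and 10.6 CPM and 2.58, 1.55, 2.91 and 3.61 CPM (-1.88 ± 0.16, edgeR adjusted p = 1.4e-10), with no overlap. Genes of mitosis varied with the replicate number in both groups. Top2a, a topoisomerase of dividing cells, was at 101, 12.9, 56.2 and 100.5 CPM without and 45.7, 11.1, 32.3 and 48.5 CPM with LPS and did not pass (-0.99 ± 0.64, edgeR adjusted p = 0.16). Replicate 2 was lowest in both groups, and 24 of the 34 genes were lowest in replicate 2 among untreated and 22 among LPS libraries. Of all 1646 genes that fell beyond 2-fold, replicate 2 was lowest for 806 among untreated and 635 among LPS libraries. It was the most frequent lowest library of both groups there too. With the replicate number as a block, Top2a was called lower (log2 change -0.91, edgeR adjusted p = 2.0e-04), and so it was without untreated replicate 2 (-1.33, edgeR adjusted p = 0.047). Mki67, the proliferation antigen, went against the rest, at 188, 38.6, 114 and 178 CPM and 204, 218, 201 and 228 CPM, without overlap but without a call (0.71 ± 0.45, edgeR adjusted p = 0.15). The same replicate was lowest for the granulocyte genes S100a9 (158, 91.8, 121 and 177 CPM and 159, 53.9, 139.5 and 175 CPM) and Ngp (128, 68.1, 94.2 and 143 CPM and 119, 50.2, 103 and 129 CPM), neither of which was called. Whether these cells or progenitors differ in number between replicates was not tested.

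**Figure D4:**
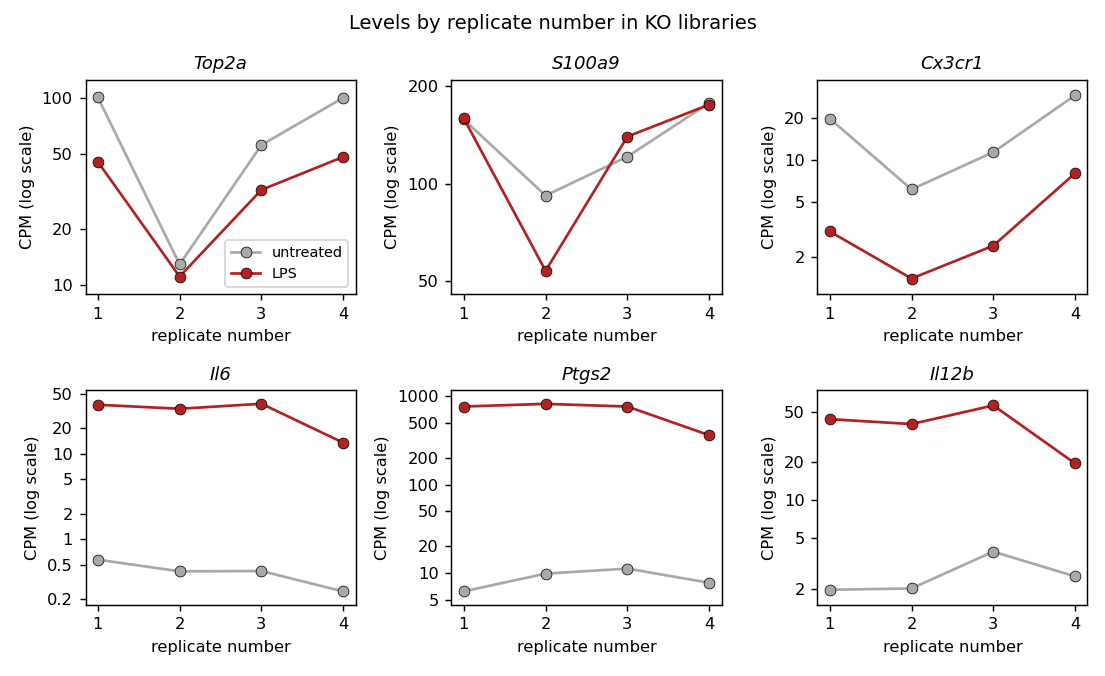
Level of 6 genes by replicate number (x axis) in untreated (grey) and LPS-treated (red) KO libraries (y axis, CPM, log scale), with points of 1 group joined to show the pattern over replicates. Top2a, S100a9 and Cx3cr1 are lowest in replicate 2 of both groups, while among LPS libraries Il6, Ptgs2 and Il12b are lowest in replicate 4.

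Single libraries stood to one side of their group across these genes. Among the 1278 genes that rose beyond 2-fold, LPS replicate 4 held the lowest of the 4 LPS values for 650 and LPS replicate 2 the highest for 697. Among the 1646 that fell beyond 2-fold, LPS replicate 4 held the highest LPS value for 762. The median log2 difference of LPS replicate 4 from the other 3 was -0.12 over the genes that rose and 0.17 over those that fell, against -0.01 over all genes. Untreated libraries varied as much: untreated replicate 1 was the lowest of its group for 709 of the genes that rose and the highest for 782 of those that fell (median log2 differences of -0.16 and 0.12 from the other 3). LPS replicate 4 was also the library with the fewest counts, 15167683, and had the lowest value for Il6, Ptgs2, Il12b and Edn1. Without it, 1309 genes rose beyond 2-fold and 1668 fell.

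Many of the largest rises started from a few counts. The 2 genes with the highest fitted changes had 1 count in all 4 untreated libraries together: Rasgrf1, a guanine nucleotide exchange factor, had 104, 88, 117 and 93 counts with LPS, a ratio of 628 (95% counting interval 112 to 24850), and Tmem200b had 104, 93, 112 and 70, a ratio of 592 (106 to 23430). These intervals, exact binomial ones, cover counting error only. Among genes with more counts, Serpinb2, the inhibitor of plasminogen activators PAI-2, was at 0.178, 0.423, 0.189 and 0.533 CPM without and 69.9, 67.3, 54.6 and 31.7 CPM with LPS (7.37 ± 0.44, edgeR adjusted p = 1.6e-12). Mir155hg, the host transcript of the microRNA miR-155 (chromosome 16, 84713023 to 84715245), was at 0.312, 0.476, 0.7104 and 0.697 CPM and 83.4, 87.5, 69.7 and 61.8 CPM (7.09 ± 0.24, edgeR adjusted p = 1.4e-16). Edn1, the vasoconstrictor endothelin-1, was at 0.0891, 0.106, 0.0947 and 0.123 CPM and 15.3, 15.6, 10.5 and 6.83 CPM (6.81 ± 0.46, edgeR adjusted p = 4.8e-12). The others of the 15 largest rises were Col27a1, a fibrillar collagen (7.14 ± 0.52), Adora2a, the zinc finger gene Zfp811 (6.85 ± 0.29), Lad1 (6.83 ± 0.32), the endothelial lipase Lipg (6.63 ± 0.30), the interferon-induced Ifitm7, which had 2 untreated counts, Acod1, the integrin Itgb8 (6.31 ± 0.28), Ptgs2 and Il6. In the untreated libraries, Col27a1 had 2, 0, 0 and 2 counts and Zfp811 had 0, 3, 4 and 6. Edn1 had 2, 2, 2 and 3 there, and Itgb8 had 5, 2, 4 and 7. Where 1 group holds so few counts, the SE given can be smaller than the counting error alone. In all, 22 genes went from under 1 CPM to at least 10 CPM, and 16 went from at least 10 CPM to under 1 CPM.

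Among the 15 largest falls was that of Angptl4, an inhibitor of lipoprotein lipase (chromosome 17, 33774900 to 33781575), at 23.3, 13.6, 13.8 and 12.7 CPM without and 0.0698, 0.141, 0.0693 and 0.0785 CPM with LPS (-7.39 ± 0.42, edgeR adjusted p = 2.7e-13). Its LPS values came from 1, 2, 1 and 1 counts, so the SE given is smaller than the counting error alone. Fam214a was at 53.1, 29.8, 38.9 and 44.3 CPM and 0.418, 0.353, 0.277 and 0.549 CPM (-6.70 ± 0.62, edgeR adjusted p = 2.8e-09). Rnf150, a ubiquitin ligase gene, was at 167, 132, 145 and 136 CPM and 3.42, 2.69, 2.496 and 2.12 CPM (-5.75 ± 0.30, edgeR adjusted p = 2.5e-13). The groups of these 3 genes lay far apart. The others of the 15 largest falls were Cxcr3 (1 count with LPS), Rasgrp3 (-5.99 ± 0.45), Gpr34, Etl4 (-5.78 ± 0.68), Sox4 (-5.66 ± 0.47), Cxcr4, Eps8 (-5.58 ± 0.35), the cannabinoid receptor Cnr2 (-5.58 ± 0.38), the organic anion carrier Slco2b1 (-5.54 ± 0.26), Lpin1, a phosphatidate phosphatase (-5.42 ± 0.30), Gpr183 and Acot1 (3 counts with LPS). Of these, Cxcr3, Gpr34, Cxcr4, Cnr2 and Gpr183 encode G protein-coupled receptors. With LPS, Sox4 had 1, 0, 3 and 2 counts, Eps8 had 6, 6, 2 and 2, and Gpr183 had 9, 7, 8 and 7. The SE given for these 3 genes is also smaller than the counting error alone.

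The 250 bases before the start of some of these genes, from RefSeq on GRCm38.p6, show where the letters of 3 textbook binding motifs occur: the NF-kB motif (kB, GGANTTTCC), the interferon-stimulated response element (ISRE, GAAANNGAA) and the AP-1 motif (TGANTCA), searched on both strands in 300 bases from 250 before to 50 after the start, 1 start per gene. The start used for a gene is not always its outermost one, and sequences are shown only where the window lies outside the gene's RefSeq coordinates. The windows of Tmem200b and Col27a1 lay inside the gene and that of Fam214a overlapped it, so these 3, picked by the naming rule, are not shown. Matches are in capitals. Mir155hg is among the largest rises whose window held a kB or ISRE match. The other 3 shown were added after the values had been seen because the results above turn on these genes. Ifit2 was added in the same way, but its window held no match of any of the motifs and is not shown. The printed genes were thus not picked blind to their matches. Sequences are written 5′ to 3′ on the strand of the gene.
Mir155hg (chr16:84712773-84713022, + strand): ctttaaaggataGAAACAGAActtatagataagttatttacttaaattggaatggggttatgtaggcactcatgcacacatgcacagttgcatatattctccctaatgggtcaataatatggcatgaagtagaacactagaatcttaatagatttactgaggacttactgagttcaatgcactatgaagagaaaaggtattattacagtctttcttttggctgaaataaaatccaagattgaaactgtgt
Il6 (chr5:30012864-30013113, + strand): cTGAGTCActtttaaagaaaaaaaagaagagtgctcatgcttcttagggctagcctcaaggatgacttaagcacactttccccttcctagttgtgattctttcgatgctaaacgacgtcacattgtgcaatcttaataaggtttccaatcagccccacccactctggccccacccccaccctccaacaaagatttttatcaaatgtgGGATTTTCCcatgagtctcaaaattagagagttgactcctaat
Acod1 (chr14:103046762-103047011, + strand): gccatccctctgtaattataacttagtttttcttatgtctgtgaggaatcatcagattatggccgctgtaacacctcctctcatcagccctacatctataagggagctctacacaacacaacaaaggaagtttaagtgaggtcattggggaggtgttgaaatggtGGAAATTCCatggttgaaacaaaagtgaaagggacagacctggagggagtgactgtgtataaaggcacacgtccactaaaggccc
Cxcl10 (chr5:92348890-92349139, - strand): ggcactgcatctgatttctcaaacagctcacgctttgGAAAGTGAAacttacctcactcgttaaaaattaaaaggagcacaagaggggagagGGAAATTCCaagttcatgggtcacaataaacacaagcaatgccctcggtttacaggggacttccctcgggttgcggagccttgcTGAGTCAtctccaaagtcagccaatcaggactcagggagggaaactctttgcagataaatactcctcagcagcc

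Il6 held a kB match from -43 to -35 and an AP-1 match from -249 to -243 relative to the start, Acod1 a kB match from -85 to -77, and Cxcl10 a kB match from -158 to -150, an ISRE match from -213 to -205 and an AP-1 match from -74 to -68. Mir155hg held an ISRE match and no kB match, which says only that the kB letters are not in this window. Among the largest rises, the windows of Rasgrf1, Zfp811, Lad1, Ifitm7, Itgb8 and Ptgs2 held none of the motifs. Serpinb2 held an AP-1 match and Edn1 an ISRE match, while Adora2a and Lipg had no window. Over the 9210 tested genes with a window, 1.32% held a kB match, 7.55% an ISRE match and 4.78% an AP-1 match. Of 999 such genes that rose beyond 2-fold, 3.50% held a kB, 14.2% an ISRE and 8.71% an AP-1 match, and of 1307 that fell beyond it, 0.459%, 6.27% and 4.67% did. Of 41 interferon-stimulated genes with a window, 27 held an ISRE match (65.9%), and of 13 chemokine genes, 4 held a kB match (30.8%). These shares are descriptions without a test, and a match of letters is not a binding site.

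The same treatment in WT macrophages gave no gene whose LPS effect differed from that in KO cells by edgeR's test. Of 11590 genes, 0 passed (0%) for the difference of the LPS effects, KO minus WT, 698 had an unadjusted p below 0.05, and DESeq2 called 17. Of the 9539 genes called in KO cells, 9168 were called in the same direction in WT cells. The interval of the difference bounds it further: for 10305 of 11585 genes with counts in all 4 groups, the 95% interval lay within 1 log2 unit (2-fold) on either side of 0. Among 2919 genes beyond 2-fold in KO cells this held for 2241. These intervals rest on an SE worked back from the F statistic and are approximate. The smallest p belonged to Peg13, an imprinted non-coding RNA, which fell by 0.85 on the log2 scale in KO cells and by 1.40 in WT cells, a difference of 0.55 (95% interval 0.34 to 0.76, edgeR adjusted p = 0.23). Sema4c, a semaphorin gene, rose by 2.27 ± 0.10 in KO and by 2.91 ± 0.10 in WT cells, a difference of -0.64 (95% interval -0.93 to -0.35, edgeR adjusted p = 0.32). Slc8b1, a mitochondrial calcium exchanger gene, fell in both genotypes, and its difference was -0.37 (95% interval -0.55 to -0.19, edgeR adjusted p = 0.32). Left out of the fit, WT LPS replicate 1 brought the count to 1, Slc8b1. For Tnf the difference was -0.01 (-0.66 to 0.64), for Il6 0.20 (-1.15 to 1.54), for Acod1 0.06 (-0.56 to 0.68), for Cxcl10 0.12 (-0.49 to 0.73) and for Rsad2 -0.02 (-0.59 to 0.54). A p that misses the threshold does not show that the genotypes respond alike, and the intervals for Il6 and other low genes reach beyond 2-fold or near it. KO libraries held fewer counts than WT libraries (15167683 to 21461866 against 31985119 to 46697165) and came from 1 lane file each against 2, so lane, depth and genotype cannot be told apart.

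**Figure D5:**
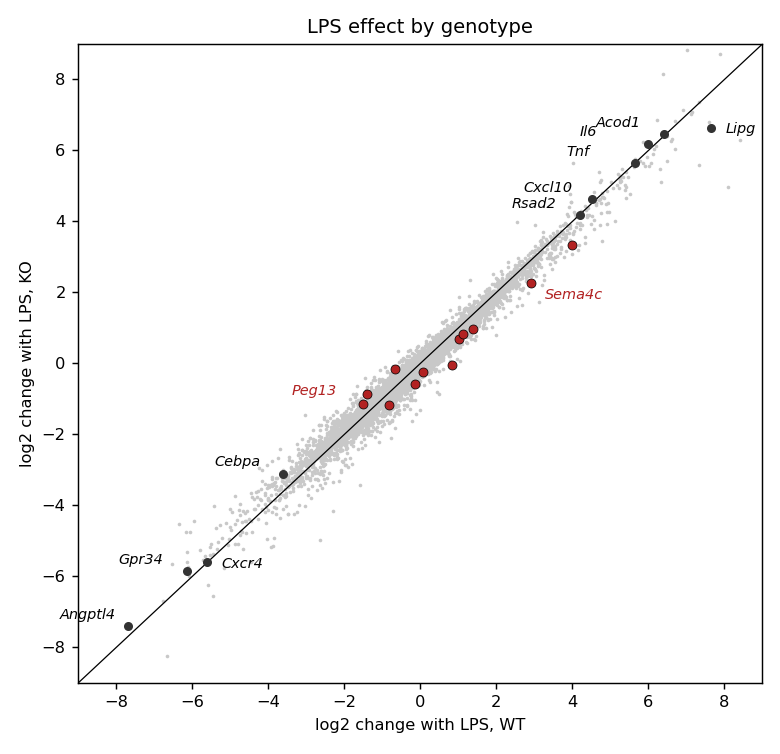
Log2 change with LPS in WT cells (x axis) against that in KO cells (y axis) for 11590 genes, with the line of equality. Red points are the 12 genes with the smallest p for the difference, none of which passed adjustment, and dark points are named LPS genes.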

How the data were processed

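The deposited table holds whole-number counts for 11590 genes in 24 libraries, made by the authors. The submitters' processing notes name STAR 2.5.2a and mm10. Which tool, annotation, strand setting or filter was used for counting is not given in the sources used here. Symbols and coordinates of 11562 genes came from RefSeq (GRCm38.p6), as did the promoter sequences, and 9 genes had no symbol.

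Counts were fitted with edgeR 4.0.16 in R 4.3.3 (TMM scaling, 6 group means over all 24 libraries, robust quasi-likelihood, 18 residual degrees of freedom). P-values were adjusted by Benjamini and Hochberg over all 11590 genes, with a threshold of 0.05. Changes beyond 2-fold were tested on the same fit, and the difference of LPS effects between genotypes as an interaction. The procedure was tested on simulated data in which a small part of the genes changed, as often up as down. That test does not show how the scaling behaves where most genes move, as they did here. RPKM used the length column of the table.

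Members and gene lists were chosen with earlier results of these data known. Genes were named by rule: the 15 largest rises and falls beyond 2-fold without overlap and at 2 CPM or more, the 8 that gained or lost most CPM, leading and opposing list members, the smallest genotype p-values, and a set list. Named genes beyond that rule were chosen after their values were seen.

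Libraries of a group differed beyond sampling noise (chi-square per degree of freedom 6.16 to 26.6 in KO). Same-numbered KO libraries deviated together (r from 0.196 to 0.511 in the data), so the numbers were taken to pair them in the replicate block, although no label says so. Untreated KO replicate 1 correlated more with an LPS library of another number (r 0.304) than with its own (0.262). In WT cells, r ran from 0.0938 to 0.264, and WT numbers were paired only in the block for the genotype difference. Alternatives were median-ratio size factors, library totals, count filters, DESeq2 1.42.0, a fit of the KO groups or the 4 groups alone, the replicate block, thinned counts and leaving out each library.

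A few of the genes the naming rule picks are not reported here.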

Additional observations from a re-analysis of the deposited data

Results flagged for a closer look

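In groups of 4 libraries, a value was singled out where its distance to the nearest other, divided by the range of the group, exceeded Dixon's 95% critical value. Of 148 groups of values, 9 did. Chance singles out about 1 in 20 groups.

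LPS replicate 4 was the lowest LPS library in 5 of the 9. Its level was 653 CPM for Nfkbia (nearest library 847), 694 CPM for Nfkbiz (833), 360.0 CPM for Ptgs2 (758), 74.2 CPM for Adora2a (104) and 192 CPM for Sdha (209). The first 4 are genes that rose beyond 2-fold, whereas Sdha was not called.

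Among the remaining 4, untreated replicate 2 had 1340 CPM of Ccl9 (nearest 781), and untreated replicate 1 had 23.3 CPM of Angptl4 (13.8). Untreated replicate 3 had the lowest Adora2a, 0.426 CPM (nearest 0.82). LPS replicate 2 had the highest Angptl4 among LPS libraries, 0.141 CPM (0.0785), from 2 counts. The groups of Nfkbia, Nfkbiz, Ptgs2, Adora2a, Ccl9 and Angptl4 did not overlap with these libraries included.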

How the results depend on the processing

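The count of called genes (9539) ran from 9225 to 10055 over the alternatives, and that beyond 2-fold (2924) from 2750 to 3789. Leaving out single libraries gave 9248 to 9522 and 2750 to 3000. With the replicate number as a block, which pairs the KO libraries, 9789 genes were called and 3136 beyond 2-fold. For the genotype difference, the block paired same-numbered libraries within each genotype, WT included, and 0 genes were called. Apart from Top2a, Ccl6 and Abcg1, the block changed no call of a named gene. The genotype difference stayed at 0 genes but for DESeq2 (17) and 1 without WT LPS replicate 1 (range 0 to 1). The share of counts on risen genes, 35.2% with LPS, was 73.5% for genes called at any fold, 36.5% without the 5 genes with the most counts, and 34.9 to 35.6% without single LPS libraries. The first takes in more genes by construction.

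By library totals alone, 3 of the named genes called higher had negative log2 changes, Ly96 (-0.24), Lyz2 (-0.21) and H2-D1 (-0.17). So did Irf3 (-0.47), which had not been called. By that scaling, the differences KO minus WT of Rsad2 and Tnf were 0.040 and 0.050. Over all genes, 875 called by both scalings had opposite signs. With median-ratio factors and DESeq2, Ddit3 moved to 0.0036 and 0.0026 and Ftl1 to 0.015 in both. In the fit of 4 groups, the Tnf difference was 0.0079. Without single libraries, genes that were not called crossed 0: Chil3 (-0.32 to 0.19), Ddit3 (-0.081 to 0.048), Ftl1 (-0.058 to 0.014), Irf3 (-0.0045 to 0.087), Ngp (-0.28 to 0.11) and S100a9 (-0.22 to 0.20). So did the genotype differences of Acod1 (-0.059 to 0.14), Cxcl10 (-0.014 to 0.36), Il6 (-0.0096 to 0.44), Rsad2 (-0.15 to 0.14) and Tnf (-0.17 to 0.10). The cause of these moves was not tested. In all, 2778 of 2818 values for 188 genes and 1152 of 1200 list counts kept direction and call or stayed within 1.5 times, as did 166 of 191 values for genotype differences, of which 21 changed sign. At the depth of these libraries, genes with a few counts in 1 group have fold changes set mainly by counting error.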

Other observations

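Of 14 housekeeping genes, often used to scale measurements, 6 rose and 5 fell (median log2 change -0.05), near the shares of 39.3% and 43.0% over all genes. By library totals alone, 4 rose and 9 fell. Actb rose beyond 2-fold, as described above. Tbp, a general transcription factor, was at 16.4, 17.7, 16.7 and 16.6 CPM without and 16.2, 16.2, 15.6 and 17.3 CPM with LPS and did not pass (-0.05 ± 0.06, edgeR adjusted p = 0.51), though by library totals alone it was called lower (-0.54).

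Of 10 osteoclast markers, 8 were measured, of which 3 rose and 4 fell (1 and 4 by library totals alone). The shares over all genes were 39.3% and 43.0%. Nfatc1, the master regulator of osteoclast formation, was at 66.3, 61.3, 66.3 and 71.96 CPM without and 24.1, 27.1, 26.9 and 30.8 CPM with LPS (-1.29 ± 0.09, edgeR adjusted p = 1.3e-11). Itgb3, the integrin of bone attachment, was at 11.7, 4.18, 7.06 and 9.06 CPM and 1.26, 0.989, 1.39 and 1.33 CPM (-2.69 ± 0.32, edgeR adjusted p = 6.3e-08). The groups of both were apart. Mmp9, a gelatinase of osteoclasts and activated macrophages, went the other way, from 23.5, 27.3, 26.99 and 24.03 CPM to 97.9, 121, 119 and 94.2 CPM (2.08 ± 0.24, edgeR adjusted p = 8.1e-08).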
